A study of Mus musculus with 9 samples.

Results

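The genes described here encode enzymes and other proteins that act in writing, copying, oxidising, removing and reading CpG methylation: *Dnmt1*, *Dnmt3a*, *Dnmt3b*, *Uhrf1*, *Tet1*, *Tet2*, *Tet3*, *Tdg*, *Gadd45b* and *Mbd2*. They were taken as a named list of 10 genes out of 34324 genes of the annotation, and all 10 passed the minimum of calls at their start and in their body. In the nucleus accumbens of 9 mice all 10 genes had a nearly unmethylated main start (the CpG-richest where several are listed), at 1.29 to 10.46% on average. The bodies of *Uhrf1*, *Dnmt1* and *Dnmt3b* were close to fully methylated, those of *Dnmt3a* and *Tet3* were methylated in patches, and the short gene *Gadd45b* had the lowest body. No start, body or 1-kb tile of these genes differed between Control and Susceptible mice after adjustment for all features tested.

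The nucleus accumbens is a part of the ventral striatum, where most neurons are GABAergic projection neurons. Each of the 9 whole-genome bisulfite libraries came from the punch of 1 mouse, a male of the C57BL/6J strain aged 8 weeks, with 5 mice labelled Control (2, 3, 4, 5 and 8) and 4 labelled Susceptible (2, 3, 6 and 7). The treatment named for all 9 samples is chronic social defeat, 10 daily defeats by a retired CD1 breeder. How Control mice were handled and by which score mice were called susceptible is not stated in the labels. Values per library are listed in the order of the mouse numbers above, Control before Susceptible. No genotype, transgene or drug is named for either group, and a punch holds neurons and glia together. In such bulk tissue, a different share of a cell type and a different level within a cell cannot be told apart.

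DNMT1 copies methylation onto the new strand after replication, and UHRF1 guides it there by binding half-methylated CpGs. DNMT3A and DNMT3B place methylation at new sites, and DNMT3A remains active in neurons after they stop dividing. The TET enzymes oxidise methylcytosine to hydroxymethylcytosine and further, TDG cuts out the later oxidation products, GADD45B is an activity-induced protein linked to demethylation, and MBD2 binds methylated CpGs and recruits a repressor complex. Bisulfite reads hydroxymethylcytosine as methylated, so the levels below are the sum of both marks.

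The libraries held 313475624 to 570984634 listed calls, at cytosines with at least 10 calls each, and every Susceptible library held more than every Control library. Disagreement between strands was read at CpGs listed on both strands with a joint level of 20 to 80%, 514984 to 1420027 per library. It was 18.4 and 19.7 times the binomial amount in Control 5 and Control 8, against 2.38 to 6.11 in the other 7 libraries. These 2 libraries are therefore named beside the values that rest on them. Marker genes were read too: start windows of 10 of 10 striatal projection neuron genes read under 20%, against 3 of 8 oligodendrocyte, 1 of 6 astrocyte and 0 of 6 microglia genes. Starts of 6 of 8 cortical projection neuron genes and 5 of 6 general neuron genes were under 20% too, so these counts do not set striatum apart from cortex. The median start of 17984 protein-coding genes was 7.51%. A low start is therefore common, and these counts do not identify a tissue or cell type. Nothing in the labels names a batch. Each mouse gave 1 library, so spread between mice and spread between libraries cannot be told apart. Permutation p-values rest on both together, and model p-values also draw on the spread of all features tested.

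A start window is the 1 kb on each side of an annotated start. Where a gene has several listed starts, the one with most CpGs served as its main start. A gene body is the annotated gene without its start windows. The level of a window is the methylated share of its calls, and the error given is the SD over libraries. Among 17984 protein-coding genes with both values the median level was 7.51% at the start and 85.2% in the body, against 2.93% and 82.5% among the 10 genes.

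**Figure D1:**
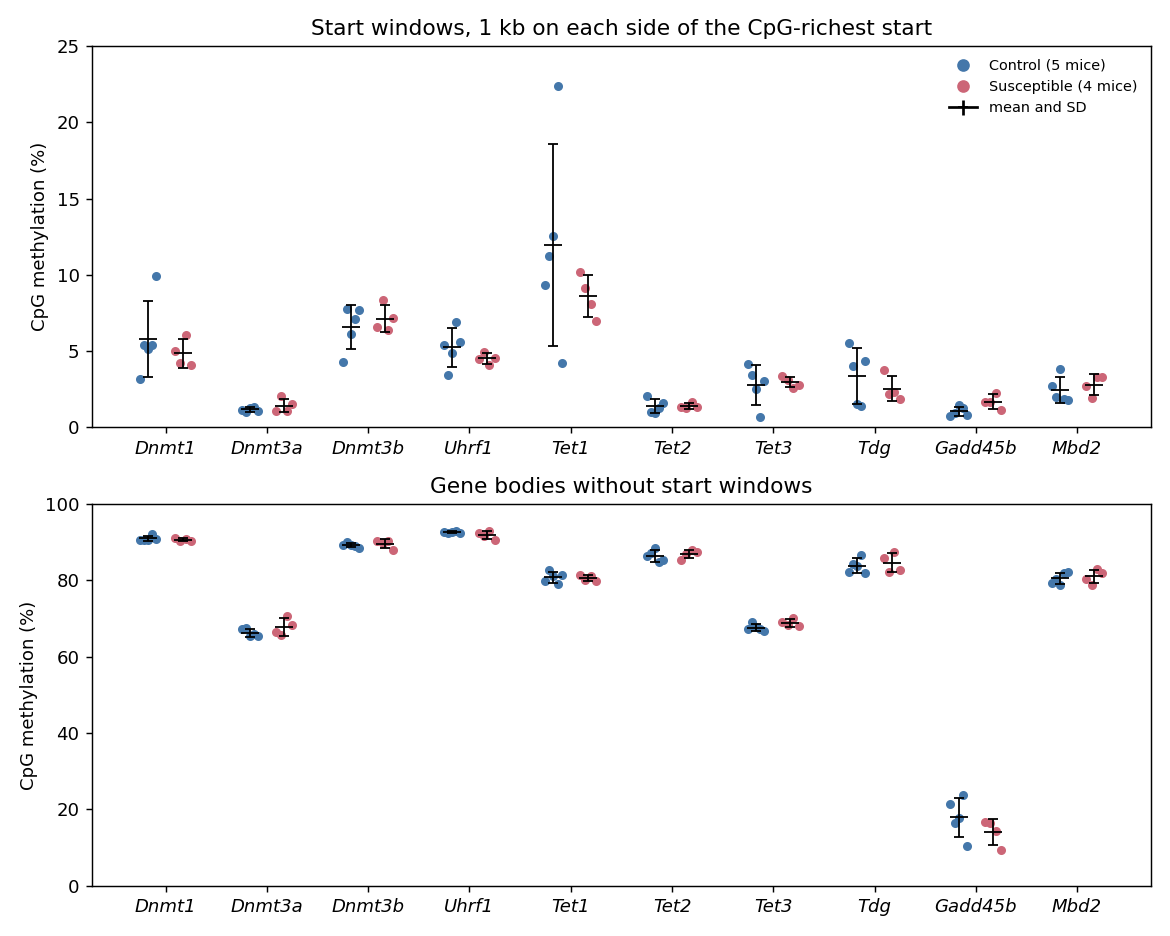
Methylation level (%) of the main start window (upper panel, axis to 25%) and gene body (lower panel, axis to 100%) of the 10 genes, with 1 point per library and black bars for the mean and SD of 5 Control and 4 Susceptible mice. The groups overlap for all 10 genes in both panels, *Tet1* has the widest spread among these starts, and *Dnmt3a*, *Tet3* and *Gadd45b* have the lowest bodies.

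*Dnmt1*, the maintenance methyltransferase (chromosome 9, 20907206 to 20959888, minus strand), has 3 listed starts that differed in level. The most upstream one, at 20959888, read 88.0% ± 7.21 (SD, n = 9). The other two, at 20952979 and 20952623, read 5.87% ± 2.12 and 5.38% ± 1.90 (SD, n = 9). Control values of the upstream window were 86.9, 89.0, 92.3, 73.6 and 100%, and Susceptible values 88.3, 82.8, 92.0 and 87.2%. So in all 9 libraries, from 398 to 969 calls, it lay far above the other two, and Control 5 and Control 8 were its lowest and highest values. The sequences of the upstream and the CpG-rich start are shown because they set a methylated and an unmethylated start of one gene side by side. Both run from 250 bases before the start to 50 after it on the minus strand, at chr9:20959839-20960138 and chr9:20952574-20952873 (RefSeq, GRCm38.p6), with every CG in capitals.
Dnmt1 upstream start: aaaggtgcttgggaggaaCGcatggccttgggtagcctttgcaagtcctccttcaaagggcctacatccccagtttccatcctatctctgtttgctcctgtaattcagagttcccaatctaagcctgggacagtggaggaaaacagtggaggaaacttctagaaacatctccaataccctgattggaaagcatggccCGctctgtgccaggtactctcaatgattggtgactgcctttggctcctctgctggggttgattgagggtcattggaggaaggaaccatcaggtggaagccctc
Dnmt1 CpG-rich start: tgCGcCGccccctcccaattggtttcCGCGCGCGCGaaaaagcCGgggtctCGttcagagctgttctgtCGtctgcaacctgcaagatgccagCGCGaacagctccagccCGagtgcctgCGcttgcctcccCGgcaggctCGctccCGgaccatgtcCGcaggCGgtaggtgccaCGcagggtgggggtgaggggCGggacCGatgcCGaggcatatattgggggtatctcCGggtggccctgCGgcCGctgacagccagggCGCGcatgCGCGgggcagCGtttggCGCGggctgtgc
The upstream sequence holds 2 CG dinucleotides, a number that 85.9% of 32851 listed promoter sequences reach. The CpG-rich one holds 33, which 8.56% reach. CG reads the same on both strands. Both CGs of the upstream sequence were methylated, at 92.1 and 99.6% of pooled calls, and all 33 of the other were under 10%, with a median of 0.394% and a highest value of 8.33%. The body of *Dnmt1* read 90.9% ± 0.567 (SD, n = 9), higher than 88.8% of protein-coding genes. Its low stretch was short. Walking out from the main start until 3 CpGs in a row read 50% or more, it spanned 1671 bp.

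*Uhrf1*, which guides DNMT1 to half-methylated CpGs (chromosome 17, plus strand), had the highest body of the 10 genes, at 92.3% ± 0.741 (SD, n = 9). That is above 94.5% of protein-coding genes. The body of *Uhrf1* was higher than that of *Dnmt1* in 9 of 9 libraries, by 1.43 points ± 0.618 (SD), although their ranges touched. Its listed starts at 56303337 and 56304313 read 3.56% ± 1.17 and 4.92% ± 1.001 (SD, n = 9). They lie inside 1 low stretch of 2794 bp, 1749 bp of it upstream of the main start. The tile that holds the main start read 3.12%, and the next tiles along the gene read 63.7, 76.7 and 88.5%.

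*Dnmt3a*, the de novo methyltransferase of neurons (chromosome 12, 3801559 to 3914443, plus strand), had on average the lowest main start and the second lowest body of the 10 genes. Its main start, at 3807160, lies in a window of 261 listed CpGs that read 1.29% ± 0.321 (SD, n = 9), lower than all but 5.70% of protein-coding genes. The neighbouring start at 3806980 read 1.35% ± 0.382 (SD, n = 9). The third start lies far inside the gene, at 3891744, and its window read 27.0% ± 3.02 (SD, n = 9), from 24.4% in Susceptible 2 to 31.7% in Control 5. Nearer that start the level was lower. Of the 18 CGs in its promoter sequence 12 were listed, from 0 to 245 calls per library. Their median was 1% of pooled calls and the highest 31.8%, and 9 were under 10%. The first start is shown because its level differed more between the groups than that of any other tested promoter sequence of these genes. It covers chr12:3806730-3807029 on the plus strand (RefSeq, GRCm38.p6), with every CG in capitals.
Dnmt3a first start: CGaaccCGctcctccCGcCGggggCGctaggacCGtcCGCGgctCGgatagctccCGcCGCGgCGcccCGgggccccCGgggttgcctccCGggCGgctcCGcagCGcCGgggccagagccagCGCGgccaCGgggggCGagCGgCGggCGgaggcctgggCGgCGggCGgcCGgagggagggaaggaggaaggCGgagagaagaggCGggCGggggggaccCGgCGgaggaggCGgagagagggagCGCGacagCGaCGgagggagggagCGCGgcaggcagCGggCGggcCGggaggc
The sequence holds 46 CG dinucleotides, which 1.65% of listed promoters reach. Control values were 2.13, 0.388, 0.924, 0 and 0.924%, and Susceptible values 3.32, 4.56, 2.23 and 2.39%. The value of 0, in Control 5, rests on 371 calls, which allow up to 0.809% by counting error alone. That limit takes calls as independent, while strand disagreement in Control 5 was 18.4 times the binomial amount. The disagreement was read at CpGs of 20 to 80% and not at CpGs near 0. All Susceptible values were above all Control values, by 2.25 points in the means. Control 2 at 2.13% lay just under Susceptible 6 at 2.23%. Calls ran from 94 to 752 per library, and the library with fewest CpGs listed 8 of the 46. The libraries were therefore read over different CpGs of this sequence. The two-sided exact permutation p was 0.0159. A quasi-binomial model on counts with limma's dispersion moderation, called the limma-moderated model here, gave p = 0.0102 and an adjusted p of 0.783. This sequence was named after its values were seen, as the only 1 of 10 tested promoter sequences of these genes whose groups do not overlap. Among all 17375 promoter sequences tested, 2.76% had groups that do not overlap and 6.11% an unadjusted p under 0.05, with 0 called (0%). The full start window around it did not separate the groups, where Control mice averaged 1.22% ± 0.191 (SD, n = 5) and Susceptible mice 1.53% ± 0.519 (SD, n = 4).

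The body of *Dnmt3a* read 67.0% ± 1.75 (SD, n = 9), lower than all but 11.9% of protein-coding genes. Control bodies stood at 67.2, 67.6, 65.5, 66.1 and 65.3%, Susceptible bodies at 66.5, 65.6, 70.8 and 68.2%. Susceptible 6 was the highest, and the groups overlapped. The low body was not an even level. Of 104 tested tiles, those over start windows included, 31 (29.8%) read between 20 and 60%, while 27 read over 80%. The 31 were spread from 2.34 to 86.3 kb after the start, a span that also holds the window of the third start. A further 3 tiles away from any listed start were under 20%. They were centred 16.3, 27.3 and 64.3 kb after the start and read 19.7, 8.27 and 13.5%. The tile at 27.3 kb ranged from 0% in Control 5 to 17.5% in Control 8, and Susceptible 6 and 7 read 16.5 and 16.4%. The 0% rests on 171 calls, which allow up to 1.75% by counting error alone.

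*Dnmt3b*, the second de novo enzyme (chromosome 2, plus strand), had the opposite body. It read 89.4% ± 0.848 (SD, n = 9), above the *Dnmt3a* body in every library, and 1 of 34 tested tiles read between 20 and 60%. Its start at 153649449 read 6.83% ± 1.197 (SD, n = 9), from 4.26% in Control 2 to 8.37% in Susceptible 3. The low stretch around it was the shortest of the 10 genes, at 1516 bp, and 455 bp of it lay upstream.

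**Figure D2:**
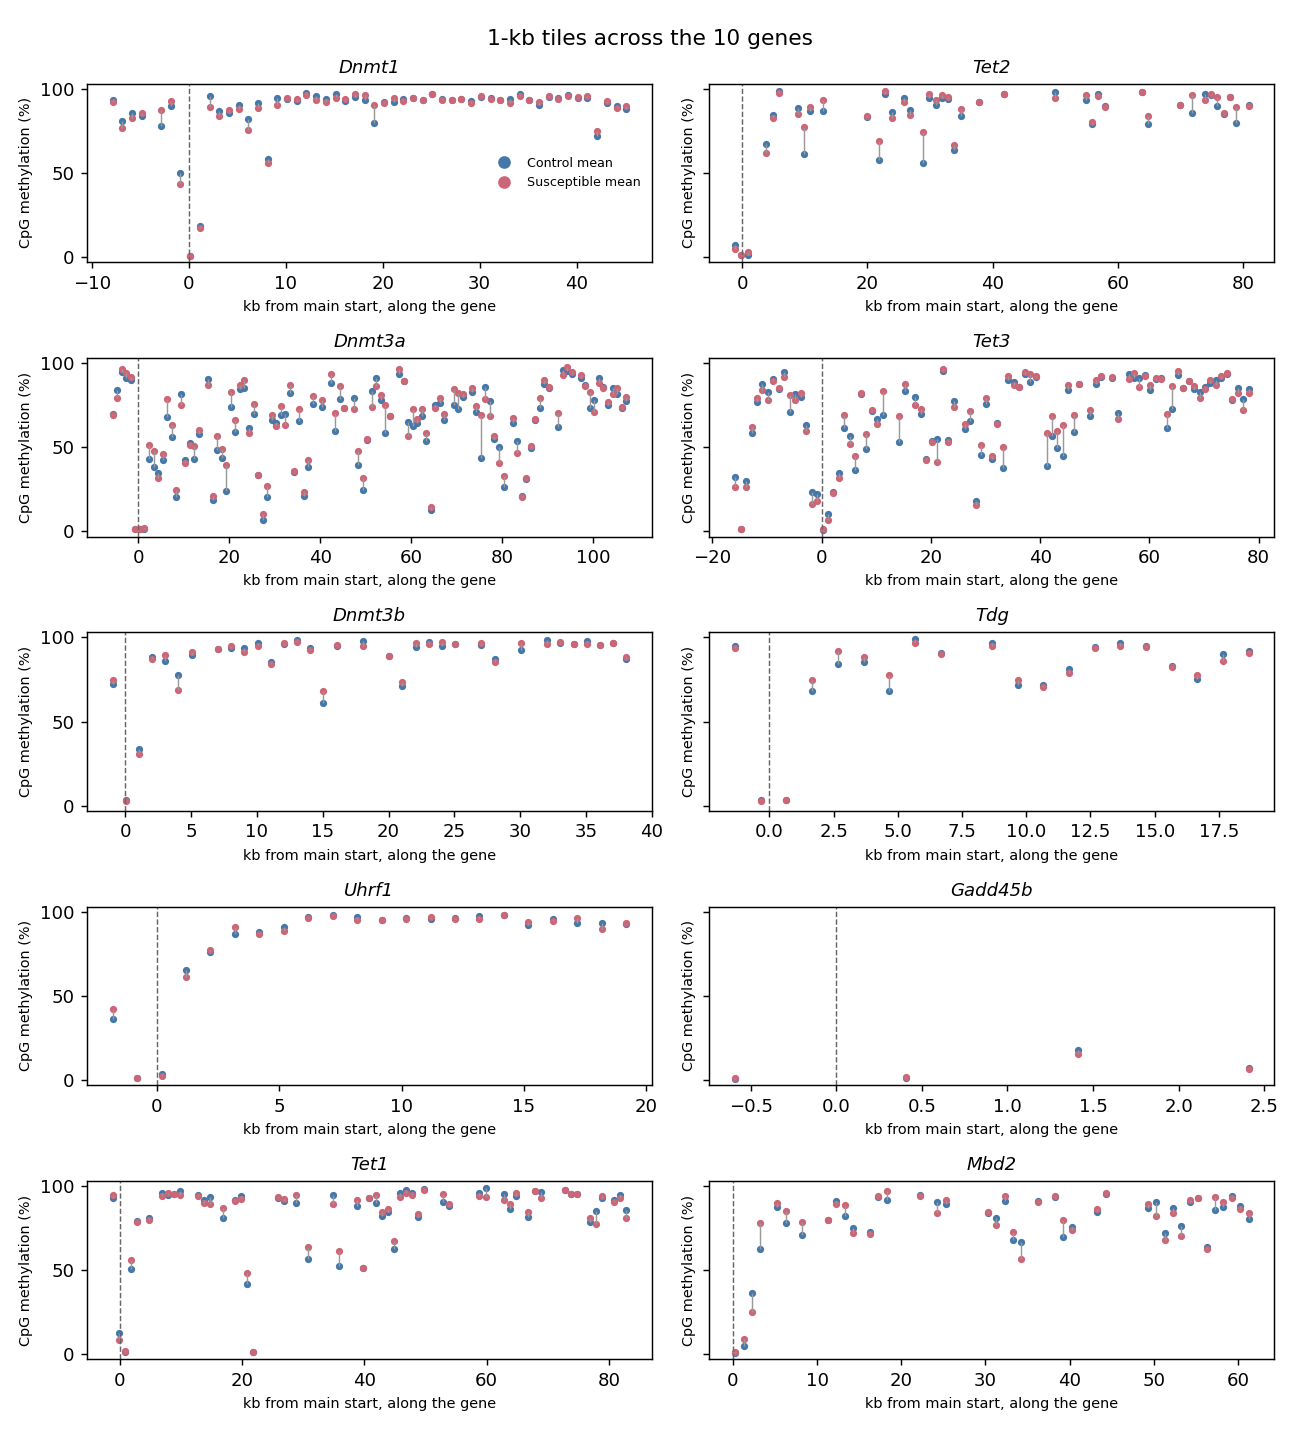
Methylation level (%) of every tested 1-kb tile against its distance (kb) from the main start, counted along the direction of transcription, with Control means in blue, Susceptible means in red and a grey line joining both. *Dnmt3a* and *Tet3* show tiles at all levels through the gene (31 of 104 and 20 of 87 between 20 and 60%), while *Dnmt1*, *Dnmt3b* and *Uhrf1* are high in most tiles beyond the start.

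*Tet1*, the first of the 3 dioxygenases (chromosome 10, minus strand), had the highest level and the widest spread among the main starts of the 10 genes. Its start window at 62887324 read 10.46% ± 5.09 (SD, n = 9). Control values were 9.31, 11.2, 12.6, 22.4 and 4.23%, and Susceptible values 10.2, 9.14, 8.10 and 6.96%. The extremes, Control 5 and Control 8, were the 2 libraries with the largest strand disagreement, and their 95% Wilson intervals of 20.05 to 24.9% and 3.55 to 5.04% did not meet. Intervals cover counting error only. The start sits at the edge of the low stretch, which reached 241 bp upstream and 1738 bp downstream. The sequence at chr10:62887275-62887574 on the minus strand (RefSeq, GRCm38.p6) is shown for that edge, with every CG in capitals.
Tet1 start: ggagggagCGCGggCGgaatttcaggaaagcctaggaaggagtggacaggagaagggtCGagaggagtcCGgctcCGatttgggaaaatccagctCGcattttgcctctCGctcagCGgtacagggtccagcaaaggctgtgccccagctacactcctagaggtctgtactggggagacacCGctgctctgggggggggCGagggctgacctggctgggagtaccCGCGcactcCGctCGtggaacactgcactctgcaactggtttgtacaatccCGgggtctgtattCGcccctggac
It holds 17 CG dinucleotides, which 31.4% of listed promoters reach, and only 6 of them were under 10% of pooled calls. The median CG stood at 13.8% and the highest at 43.6%, whereas the median CG was at most 2.23% in the other unmethylated promoters of these genes. The body read 80.8% ± 1.13 (SD, n = 9). A second unmethylated tile lay 21.8 kb after the start, within the annotated gene and overlapping the annotated end of *Gm51805*. It read 1.23% ± 0.703 (SD, n = 9) from 795 to 1270 calls, as low as a start. No start of *Tet1* is listed there.

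*Tet2* (chromosome 3, minus strand) had a start of 1.40% ± 0.337 and a body of 86.7% ± 1.28 (SD, n = 9). None of its 41 tested tiles read between 20 and 60%. Its promoter was the densest of the 9 genes with a listed sequence, with 57 CG dinucleotides, which 0.152% of listed promoters reach, and 56 of these were under 10%.

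*Tet3*, the TET enzyme known as abundant in adult brain (chromosome 6, 83362373 to 83457208, minus strand), resembled *Dnmt3a*. Its start at 83441678 read 2.86% ± 0.955 (SD, n = 9), from 0.689% in Control 5 to 4.17% in Control 2. Low methylation reached far around it, since the stretch under the same rule spanned 7639 bp at 14.7%. Its length depended on the libraries, at 6674 bp from Control and 5642 bp from Susceptible calls alone. It was not low throughout: the bin from -3250 to -3001 bp averaged 84.1% in Control and 82.4% in Susceptible mice. The sequence at chr6:83441629-83441928 on the minus strand (RefSeq, GRCm38.p6), with every CG in capitals, is shown as an unmethylated start with fewer CGs than that of *Dnmt3a*.
Tet3 start: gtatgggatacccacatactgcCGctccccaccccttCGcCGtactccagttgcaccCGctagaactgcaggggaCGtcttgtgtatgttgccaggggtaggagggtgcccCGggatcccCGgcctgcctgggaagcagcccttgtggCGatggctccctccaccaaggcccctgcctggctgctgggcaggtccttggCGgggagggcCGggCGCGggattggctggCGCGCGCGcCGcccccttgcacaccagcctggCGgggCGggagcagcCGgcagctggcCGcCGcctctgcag
It holds 22 CG dinucleotides, which 23.1% of listed promoters reach, and all 22 were under 10%. Control bodies stood at 67.4, 69.1, 67.8, 67.4 and 66.7%, Susceptible bodies at 69.0, 68.3, 70.2 and 68.0%, with a mean of 68.2% ± 1.09 (SD, n = 9). On the minus strand the annotated gene begins at 83457208, upstream of the main start at 83441678. Near that end, and so within this body, lay a CpG-dense tile (56 to 122 CpGs per library), centred 14.8 kb before the main start. It read 1.39% ± 0.434 (SD, n = 9), and no start of *Tet3* is listed there. Downstream of the main start alone the body was 76.0% ± 1.82 (SD, n = 9), higher than 19.5% of protein-coding genes, where *Dnmt3a* was 66.2% ± 1.86 and higher than 10.7%. Of the 87 tested tiles 20 (23.0%) read between 20 and 60%. One more low tile, 28.2 kb after the start, read 16.8% ± 4.65 (SD, n = 9). *Dnmt3a* and *Tet3* together held 51 of the 61 intermediate tiles of the 10 genes. The share was 26.7% of their tiles, 3.70% of the tiles of the other 8 genes and 5.54% of all 1041809 tiles tested. The pair was singled out after these values were seen.

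*Tdg*, the glycosylase that removes oxidised cytosines (chromosome 10, plus strand), read 3.004% ± 1.45 at its start and 84.2% ± 2.10 in its body (SD, n = 9). Control 4 and Control 5 were low at the start, at 1.56 and 1.40%, and Control 2 was highest at 5.52%.

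*Gadd45b*, the activity-induced gene (chromosome 10, 80930091 to 80932204, plus strand), is 2114 bp long and had the lowest body of the 10 genes. Its start read 1.34% ± 0.492 (SD, n = 9). What remained of its body outside the start window read 16.3% ± 4.64 (SD, n = 9), lower than all but 2.17% of protein-coding genes. Within the gene the bin from 1500 to 1749 bp after the start was higher, at 41.8% in Control and 38.5% in Susceptible mice on average, and ranged from 12.4% in Control 8 to 68.4% in Control 5. The 1-kb tile centred 2.41 kb after the start read 6.75%. The whole low stretch spanned 5574 bp, from 1586 bp before to 3987 bp after the start. The sequence at chr10:80929841-80930140 on the plus strand (RefSeq, GRCm38.p6), with every CG in capitals, is shown because its window had the smallest exact p among the 10 main starts.
Gadd45b start: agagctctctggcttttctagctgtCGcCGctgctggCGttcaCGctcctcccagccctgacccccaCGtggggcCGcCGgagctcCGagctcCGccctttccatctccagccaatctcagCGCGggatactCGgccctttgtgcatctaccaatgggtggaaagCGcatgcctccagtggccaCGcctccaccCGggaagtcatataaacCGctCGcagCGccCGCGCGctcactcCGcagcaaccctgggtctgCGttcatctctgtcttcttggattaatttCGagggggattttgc
It holds 24 CG dinucleotides, which 19.98% of listed promoters reach. A library listed 21 of them, and all 21 were under 10%.

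*Mbd2*, the methyl-CpG reader (chromosome 18), was matched to no entry of the promoter table, and the CpG-richer end of the gene stood in for its start. That window read 2.61% ± 0.748 and the body 80.8% ± 1.53 (SD, n = 9). Its low stretch spanned 1969 bp, 155 bp of it before and 1813 bp after that position. From the calls of either group alone the same rule gave 2918 bp.

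The levels of the main starts were put in order, and the ranges of all neighbours overlapped. From high to low the order was *Tet1*, *Dnmt3b*, *Dnmt1*, *Uhrf1*, *Tdg*, *Tet3*, *Mbd2*, *Tet2*, *Gadd45b* and *Dnmt3a*. *Mbd2* was above *Tet2* in 9 of 9 libraries, by 1.21 points ± 0.829 (SD), and all other neighbours changed places in at least 1 library. *Gadd45b*, though higher in the mean, was above *Dnmt3a* in only 3 of 9 libraries. Body levels were better separated. *Uhrf1*, *Dnmt1*, *Dnmt3b* and *Tet2* kept their order in 9 of 9 libraries. *Mbd2* and *Tet1* were alike, 0.00835 points apart with an SD of 1.92. *Tet1* lay 12.5 points ± 1.15 (SD) above *Tet3*, with no overlap, and *Gadd45b* lay 50.7 points ± 5.33 (SD) below *Dnmt3a*. Downstream of its main start alone, *Tet3* reached 79.6% in its highest library, above the lowest *Tet1* value of 79.0%, so the ranges of those bodies overlapped.

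Within each library the body was compared with the start of the same gene. The body was higher in 9 of 9 libraries for all 10 genes, by 14.9 points ± 4.69 (SD, n = 9) at *Gadd45b* and by 65.4 to 87.4 points at the other 9. The two-sided exact sign-flip test gave p = 0.0039 for each, the smallest possible, and an adjusted p of 0.0053 over 28481 genes. This is common: 68.7% of those genes were called with a higher body, 63.4% were higher in all 9 libraries, and 15.3% were called with a lower body. The gap did not differ detectably between the groups for any of the 10 genes, with differences from -4.49 points at *Gadd45b* to +3.21 at *Tet1* and exact permutation p from 0.167 to 0.968. The *Tet1* value was +0.156 without Control 5 and +5.28 without Control 8. With the most upstream start in place of the CpG-richest one, *Dnmt1* dropped out, and 9 of 10 genes were called.

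No start window of the 10 genes differed between Control and Susceptible mice at an adjusted p under 0.05. That share was 0% of 36394 windows tested, and 4.75% had an unadjusted p under 0.05, which none of the 10 main starts did. In 1.82% of all windows the groups did not overlap, and in 0 of the 10. Differences ran from -3.36 points at *Tet1* to +0.640 at *Gadd45b*, 6 higher and 4 lower. The median absolute difference was 0.594 points, against 0.862 among protein-coding genes.

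The *Gadd45b* start came nearest to a difference. Control values were 0.756, 0.912, 1.45, 1.30 and 0.838%, and Susceptible values 1.67, 1.67, 2.29 and 1.15%. Susceptible 2, 3 and 6 lay above all Control values and Susceptible 7 lay among them. Control mice averaged 1.05% ± 0.306 (SD, n = 5) and Susceptible mice 1.69% ± 0.465 (SD, n = 4), and the two-sided exact permutation test gave p = 0.0397. In the quasi-binomial model with limma's dispersion moderation across all windows the unadjusted p was 0.0615 and the adjusted p 0.977. The exact p rose to 0.270 with windows of 500 bp on each side, and the difference turned to -0.373 points with 2000 bp. At *Tet1* the Control mean of 11.9% ± 6.64 (SD, n = 5) exceeded the Susceptible mean of 8.59% ± 1.38 (SD, n = 4), but not beyond the spread (exact permutation p = 0.437). That difference was -0.746 points without Control 5 and -5.29 without Control 8.

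Gene bodies gave the same count. None of the 10 was called, with 0% of 30204 bodies called, and none had an unadjusted p under 0.05, against 3.89% of all bodies. Groups did not overlap in 1.36% of bodies and in 0 of the 10. For *Tet3* the Control mean was 67.7% ± 0.889 (SD, n = 5) and the Susceptible mean 68.9% ± 0.991 (SD, n = 4). That difference of +1.22 points gave an exact permutation p of 0.0952, a model p of 0.0515 and an adjusted p of 0.99991. Without Susceptible 6 it was +0.780 points. Downstream of its main start alone the unadjusted model p was 0.0304. *Dnmt3a* differed by +1.45 points, from 66.3% ± 1.03 (SD, n = 5) to 67.8% ± 2.28 (SD, n = 4), and its exact permutation p was 0.246. Without Susceptible 6 that fell to +0.443 points. The *Gadd45b* body differed most in size, by -3.85 points, and had an exact permutation p of 0.206. It was -2.23 points without Susceptible 7 and -2.37 without Control 5.

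Single tiles of 1 kb were then tested along the genes. Of 584 tiles that overlap the 10 genes, 461 passed the minimum of 3 CpGs and 20 calls in every library. None was called, as 0% of all 1041809 tiles were, with a smallest adjusted p of 0.997 among the 461. At an unadjusted p under 0.05 there were 25 tiles (5.42%, against 4.38% of all tiles), 20 of them higher and 5 lower in Susceptible mice. Without Susceptible 6 the count was 13 of 462. Among all tiles at that level 49.9% were higher, and 64.7% of those between 20 and 60% in methylation. Of the 25 tiles 6 lay in that range, 5 of them higher. In 11 tiles (2.39%, against 1.56%) the groups did not overlap, 8 higher (1.74%, against 0.598% of all tiles) and 3 lower (0.651%, against 0.96%). All tiles come from the same mice, and no test was made of these shares.

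**Figure D3:**
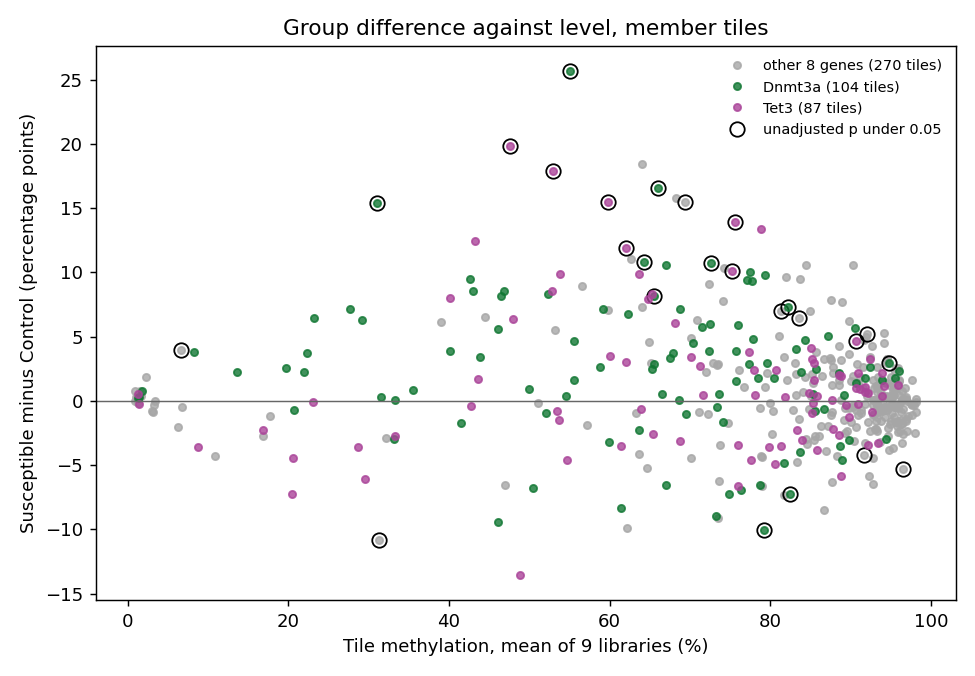
Difference of group means (Susceptible minus Control, percentage points) against the mean level (%) of each of 461 tiles, with *Dnmt3a* in green, *Tet3* in purple, the other 8 genes in grey and circles around the 25 tiles with an unadjusted p under 0.05. The circled tiles of *Dnmt3a* and *Tet3* lie mostly above 0, 15 of 17, where 49.9% of all tiles with such a p and 64.7% of those between 20 and 60% in level were higher.

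The tile of smallest p lay in *Dnmt3a*, 75.3 kb after the start (chromosome 12, 3882001 to 3883000), where the noncoding gene *Gm31623* is annotated too. Control values were 49.5, 52.3, 34.7, 47.1 and 34.5%, and Susceptible values 75.8, 54.3, 69.0 and 78.0%. All Susceptible values were higher, though Susceptible 3 was close to Control 3. Control mice averaged 43.6% ± 8.41 (SD, n = 5) and Susceptible mice 69.3% ± 10.7 (SD, n = 4), +25.7 points apart, from 95 to 278 calls per library at 4 to 6 CpGs. The limma-moderated model gave an unadjusted p of 0.000524 and an adjusted p of 0.997.

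*Tet3* had 7 tiles with an unadjusted p under 0.05, all higher in Susceptible mice. The smallest p was 14.2 kb after the start (chromosome 6, 83427001 to 83428000). That tile averaged 52.9% ± 9.39 (SD, n = 5) in Controls against 68.4% ± 5.0002 (SD, n = 4), from 41.1% in Control 5 to 74.6% in Susceptible 6, and the groups overlapped. Its p was 0.00154 and its adjusted p 0.997 in the limma-moderated model. Tiles 41.2 and 11.2 kb after the start did not overlap between the groups. The first read 38.8% ± 9.65 (SD, n = 5) against 58.6% ± 5.09 (SD, n = 4) from as few as 50 calls. The second read 69.4% ± 5.98 (SD, n = 5) against 83.3% ± 1.39 (SD, n = 4). Before the main start, but inside the annotated gene, the tile at -5.82 kb was higher by 10.1 points. The tile at -9.82 kb, also inside it, was lower by 4.90 points, and in both the groups did not overlap. The second had an unadjusted p of 0.147 in the limma-moderated model.

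*Dnmt3a* had 10 tiles at that unadjusted level, 8 higher and 2 lower. Groups did not overlap in 3 of its tiles, and 1 of these, at 38.3 kb, was not among the 10 (unadjusted p = 0.138 in the limma-moderated model). Besides the tile at 75.3 kb, the tiles without overlap lay 6.34 kb after the start, at 67.8% ± 3.79 (SD, n = 5) against 78.5% ± 2.62 (SD, n = 4), and 38.3 kb after it, at 75.7% ± 1.82 (SD, n = 5) against 80.5% ± 2.55 (SD, n = 4). Over all 191 tested tiles of *Dnmt3a* and *Tet3*, 66.0% were higher in Susceptible mice, against 48.5% of the 270 tiles of the other 8 genes and 47.6% of all tiles. Among all tiles between 20 and 60% in level the share was 54.7%, and among the 61 such tiles of the 10 genes it was 62.3%. Tiles of one gene come from the same 9 mice and are not separate replicates.

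Cell type markers were read beside these tiles. Bodies of 9 of 10 striatal projection neuron genes, 5 of 6 general neuron genes, 3 of 8 cortical projection neuron genes, 3 of 8 oligodendrocyte genes, 1 of 6 microglia genes and 0 of 6 astrocyte genes were higher in Susceptible mice, against 47.8% of all protein-coding bodies. The striatal list mean was 56.2 to 63.8% in Control and 58.9 to 68.8% in Susceptible libraries, +3.63 points apart in the means, and +1.82 without Susceptible 7. The astrocyte list mean was 75.6 to 78.1% in Control libraries. Susceptible 2, 3 and 6 lay inside that range and Susceptible 7 below it at 71.1%, so that the difference of -2.16 points was -0.869 without Susceptible 7. The microglia list mean differed by -1.02 points, by -0.372 without Susceptible 7 and by -0.354 without Control 5. The striatal list was highest in Susceptible 7 and Susceptible 6, as was the *Dnmt3a* body. The *Tet3* body did not follow that order: it was highest in Susceptible 6, but at 68.0% Susceptible 7 lay below Control 3, Susceptible 2 and Susceptible 3. No body of these lists was called. The part of the cell mix in the tiles of *Dnmt3a* and *Tet3* was not tested.

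**Figure D4:**
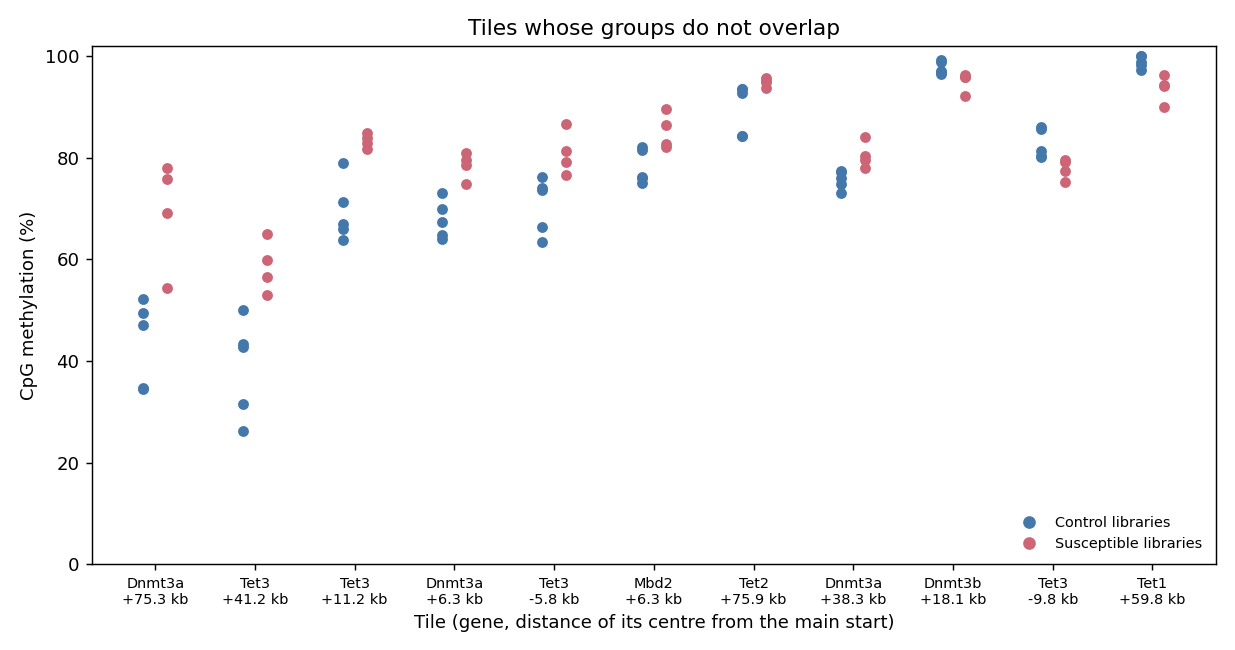
Methylation level (%) in each library for the 11 tiles whose groups do not overlap, in order of the difference, with Control libraries in blue and Susceptible libraries in red. In 8 tiles the Susceptible libraries are higher and in 3 lower, and the widest separation of means is in *Dnmt3a* at 75.3 kb.

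Per tile tested, *Mbd2* held about the same share with an unadjusted p under 0.05 as *Dnmt3a* and *Tet3*: 9.76% of 41 tiles, against 9.62% of 104 and 8.05% of 87. Its 4 such tiles all lay within 7 kb of its stand-in start. The one of smallest p, 3.28 kb from it, was higher by 15.5 points (limma-moderated model, unadjusted p = 0.0119, adjusted 0.997), and the one at 6.28 kb did not overlap, higher by 7.03 points. *Tet1* had 3 such tiles, with the smallest p of 0.0192 at 59.8 kb, where Control mice averaged 98.9% ± 1.14 (SD, n = 5) and Susceptible mice 93.6% ± 2.64 (SD, n = 4) without overlap. *Tet2* had 1, at 75.9 kb, at 89.7% ± 4.94 (SD, n = 5) against 94.9% ± 0.812 (SD, n = 4), in which Control 5 and Control 8 were lowest, at 84.3% each. *Dnmt1*, *Dnmt3b*, *Uhrf1*, *Tdg* and *Gadd45b* had none. Their tiles of smallest p differed by +3.23, -9.10, -3.30, -2.47 and +0.782 points, with unadjusted p from 0.0581 to 0.0919. A *Dnmt3b* tile at 18.1 kb had no overlap and was lower by 2.61 points (unadjusted p = 0.213 in the limma-moderated model).

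A list of 34 further genes of the pathway was read in the same way, and 33 were found. It held other methyl-CpG readers, GADD45 proteins, deaminases, base excision repair enzymes and cofactor enzymes. Of their start windows 27 of 33 read under 20%, with a median of 4.11%. The highest were *Dppa3*, a protector of maternal methylation in the egg, at 88.3%, and *Dnmt3l*, the germ-cell cofactor of DNMT3A, at 88.1%. The lowest were *Qser1* at 0.719% and *Apex1*, the abasic-site endonuclease, at 0.971%. None of the 33 starts or bodies was called. The largest differences were -5.12 points at *Neil3* and -5.11 at *Neil2*, which encode DNA glycosylases. At an unadjusted p under 0.05 there were 2 starts, *Neil1* and *Idh2*, and 0 bodies, where 4.75% of all start windows and 3.89% of all bodies had such a p. These 2 were named after their values were seen.

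*Tet1* had the largest SD among the main starts, and the 3 genes whose start levels followed it most closely over the 9 libraries were *Tmem144*, *Alpl* and *Slc12a8*, with Pearson r of 0.975, 0.971 and 0.971. They were the highest of 8177 genes with a spread at least as large, so values this high are given as a description only. All share the libraries and the high value of Control 5.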

How the data were processed

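Nucleus accumbens DNA of 9 mice was bisulfite-sequenced genome-wide. Per the labels' protocols, the kit was Zymo's Pico Methyl-seq, used on column-purified DNA. The submitters' processing notes name mm10, Bismark, Bowtie and Picard, without version or role. Per the file headers, each row is a cytosine with its deposited count of calls (coverage) and 2 deposited values in percent, for C and for T. All listed cytosines had at least 10 calls, so a minimum was applied before deposit, and the totals, 313475624 to 570984634 calls per library, are not the full depth. No column was left unmapped.

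Methylated calls were recovered as the count times the percent of C, and the strands of a CpG were added. In 2 libraries, 4 and 8 repeated entries were dropped. Starts and strand came from the RefSeq promoter table and gene bounds from the RefSeq gene table, both GRCm38.p6. Of the CGs in the promoter sequences 97.2% were listed in a library, and 100% of the CpGs listed there fell on a CG. Of 34324 genes 26793 had a listed start, 9 of the 10 members among them, and the CpG-richer gene end stood in for the other 7531. A gene with several starts was described by the one with most CpGs, a choice made after the reference table was seen. The main start, body and 1-kb tile tests used a quasi-binomial model on counts with limma's dispersion moderation (written in Python 3.11.15, checked against limma 3.58.1 and tested on simulated data). A feature was tested where no library had fewer than 3 CpGs or 20 calls, and Benjamini-Hochberg adjustment ran over all features of a kind. Differences of one gene were also tested with a two-sided exact permutation test over the samples (smallest possible p 0.00794), and body against start over all sign flips. Stretches, intervals and promoter tests are descriptions added to these.

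The members and lists were chosen with earlier results of these data known. Named were all 10 genes, for each gene its tile of smallest p and its tiles under 20% away from the start, all tiles without overlap, and 6 genes of the pathway list, the 2 highest and 2 lowest starts and the 2 largest differences. Another 2 of that list, with an unadjusted p under 0.05, were named after their values were seen. Alternatives changed the window, the weighting, the minimum of calls, the start, the body, the test and the libraries. Libraries 2 and 3 of both groups share a number, but their deviations from the group means did not correlate (0.0288 and -0.0324), so the number was not taken to pair mice.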

Additional observations from a re-analysis of the deposited data

Results flagged for a closer look

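In the gene body of *Dnmt1*, Control 5 read 92.3% and stood apart from the other Control libraries, of which the nearest, Control 8, read 91.0%. The gap was 0.797 of the range of the 5 Control values. It was the only 1 of 40 groups checked, being the start and body levels of the 10 genes in both groups, where chance flags about 1 in 20.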

How the results depend on the processing

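No start (19 settings), body (17) or tile (15) of the 10 genes was called, limma on logit methylation and the replicate block included. The replicate block fits only libraries 2 and 3 of both groups, whose numbers are shared. With so few libraries its 0 members called of each kind cannot show that the result is robust. It left 16 tiles with an unadjusted p under 0.05. That tile count ran from 9 (of 244 tested, cytosines with 20 or more calls) to 34 (without Control 5). It was 13 without Susceptible 6, 32 without Control 5 and 8 together and 11 by limma on logit methylation, against 25. At most 1 start and 1 body had an unadjusted p under 0.05. The higher body was called for all 10 genes except with 2000 bp, where the window covers almost all of the 2114 bp of *Gadd45b*, and from the most upstream start (9 each). Over all tiles, 1 was called without Control 4. The sign of many single-gene differences, none of them called, turned under some setting. In what follows, numbers are Susceptible minus Control in percentage points, and the gap is body minus start. The cause was not tested. With each CpG weighted equally, the sign turned for the starts of *Dnmt1* (+0.256), *Tet3* (-0.451), *Tdg* (+0.0509) and *Mbd2* (-0.133), the bodies of *Tet1* (+0.306) and *Tet2* (-0.203) and the gaps of *Dnmt1* (-0.473), *Uhrf1* (-0.614) and *Tet2* (-0.482). With windows of 500 bp on each side, the sign turned for the starts of *Dnmt1* (+0.0148), *Dnmt3b* (-0.381) and *Tet2* (-0.0972) and the gaps of *Dnmt1* (-0.513), *Dnmt3b* (+0.14) and *Tet2* (-0.733). With 2000 bp, the sign turned for the starts of *Dnmt1* (+0.561), *Tdg* (+0.94) and *Gadd45b* (-0.373) and the gaps of *Dnmt1* (-0.718), *Tdg* (-0.788) and *Mbd2* (-0.0808). On CpGs listed in all 9 libraries, the sign turned for the start of *Dnmt3b* (-0.248), the body of *Tet1* (+0.543) and the gaps of *Dnmt3b* (+0.874) and *Mbd2* (-0.00542). From cytosines with 20 or more calls, the sign turned for the start of *Tet2* (-0.0914), the bodies of *Dnmt3b* (-0.0468), *Tet1* (+0.372) and *Tdg* (-0.468) and the gaps of *Uhrf1* (-0.313) and *Mbd2* (-0.762). From the most upstream listed start, the sign turned for the start of *Uhrf1* (+1.21) and the gap of *Uhrf1* (-1.92). With 1 library left out, the sign turned at least once for *Dnmt1* start (-1.6 to +0.0706), *Dnmt1* gap (-0.423 to +1.18), *Dnmt3b* start (-0.0338 to +0.836), *Dnmt3b* gap (-0.639 to +0.47) and *Uhrf1* gap (-0.524 to +0.426). It also turned for *Tet1* body (-0.59 to +0.354), *Tet2* start (-0.0855 to +0.184), *Tet3* start (-0.339 to +0.531), *Tdg* body (-0.166 to +1.55), *Mbd2* body (-0.097 to +1.27) and *Mbd2* gap (-0.571 to +0.748). The *Gadd45b* start kept its direction with 500 bp, 20 calls and CpGs of all 9 libraries, but its exact permutation p rose to 0.270, 0.0794 and 0.135. It lay between 0.0357 and 0.107 with 1 library left out (+0.442 to +0.822), above 0.05 in 8 of 9 cases. The *Uhrf1* body without Susceptible 6 (-1.10, exact permutation p = 0.0179), the *Tet3* body without Control 3 (+1.58, exact permutation p = 0.0286, but +0.780 and 0.250 without Susceptible 6) and the *Gadd45b* gap without Control 8 (-6.31, exact permutation p = 0.0286) passed the unadjusted 0.05. The most upstream start, the body downstream of the main start and the marker lists with 1 library left out were choices made after the data were seen. Depth limits single tiles most, of which one in *Tet2* rests on 30 calls in 1 library.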
